A study of Mus musculus with 9 samples.

Results

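Activins and bone morphogenetic proteins (BMPs) are secreted dimers of the TGF-beta superfamily, and 10 of their signalling genes were followed in aortas of ApoE-knockout mice given angiotensin II (Ang II) or sham treatment. The members were Inhba, Inhbb, Fst, Fstl3, Bmp2, Bmp4, Bmp6, Grem1, Acvr1 and Id1. They were taken by gene symbol from the 18830 genes of the count tables, and all 10 passed the filter on low counts, as did 14741 genes in all. RNA of the aorta was sequenced in 9 libraries in 3 groups of 3. Both Ang II groups received the vasoconstrictor peptide by osmotic pump at 1000 ng/kg/min, for 28 days in one and for 14 days in the other, and the remaining group was a sham control that the series text describes as saline. All groups carried the Apoe deletion, which makes mice prone to atherosclerosis, so there is no group with normal Apoe. The series text places the harvested segment in the suprarenal abdominal aorta. Nothing in the sources states the age, sex or strain background, the day of the sham harvest, or which mice had an aneurysm. The labels do not say that the libraries of a group came from separate animals, so the p-values measure only the spread between these libraries.

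Activin A is a dimer of the Inhba product and activin B of the Inhbb product. Activins bind type II receptors, which recruit type I receptors that phosphorylate Smad2 and Smad3, while BMPs act through Smad1, Smad5 and Smad9 and induce the Id genes. Both arms are held in check outside the cell, activins by follistatin (Fst) and the follistatin-like protein Fstl3, and BMPs by antagonists such as gremlin (Grem1). In the vessel wall, BMP signalling is known for its part in endothelial function and in medial calcification.

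Libraries held between 9609690 and 14923936 expected counts. Levels are in CPM, each count over its library's TMM-scaled total. Defining transcripts of smooth muscle were read in every library; the tissue field says aorta and the sample titles say muscle. The 8 smooth muscle markers summed to between 2222 and 6743 CPM at 28 days, between 3901 and 17851 CPM at 14 days, and between 10410 and 31911 CPM in sham. Libraries stood apart for other tissues. The 6 skeletal muscle markers summed to between 91.8 and 13330 CPM at 28 days, between 3.96 and 16.9 CPM at 14 days, and between 3.86 and 43.5 CPM in sham, and Myh4 was at 0 in some libraries. The 8 neuron and Schwann cell markers were at 2682 CPM in 28-day replicate 2, 2500 CPM in 14-day replicate 1 and 5795 CPM in sham replicate 2, above the other 6 libraries. The 14-day replicate 2 held 12885 CPM of the 8 macrophage markers and 15750 CPM of the 7 fibroblast markers, the highest of the 9 libraries for both lists.

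Aortas after 28 days of Ang II were set against sham to ask which of these genes differ at the later time. Inhba, Fstl3 and Bmp4 were lower in all 3 libraries at 28 days than in any sham library, and Grem1 was higher. Grem1, however, passed the filter on low counts only through its Ang II libraries. By edgeR's quasi-likelihood test with Benjamini-Hochberg adjustment over all genes, no member passed 0.05, and 0% of the 14741 genes did. At an unadjusted p under 0.05 there were 3 members lower, where 5.89% of all genes tested were lower, and 0 higher, where 7.96% were higher. These were Inhba, Fstl3 and Bmp4, which varied together over the libraries and so are not 3 separate results. Groups did not overlap, with 28 days lower, for 3 members and for 9.46% of all genes, and with 28 days higher for 1 member and 12.2% of all genes, so for 4 members and 21.7% of all genes in either direction. DESeq2, which called 2.69% of all genes lower and 3.89% higher, called the same 3 members lower, and limma on log2 CPM called 0 genes. The median log2 fold change was -0.26 over the members and -0.08 over all genes tested.

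**Figure D1:**
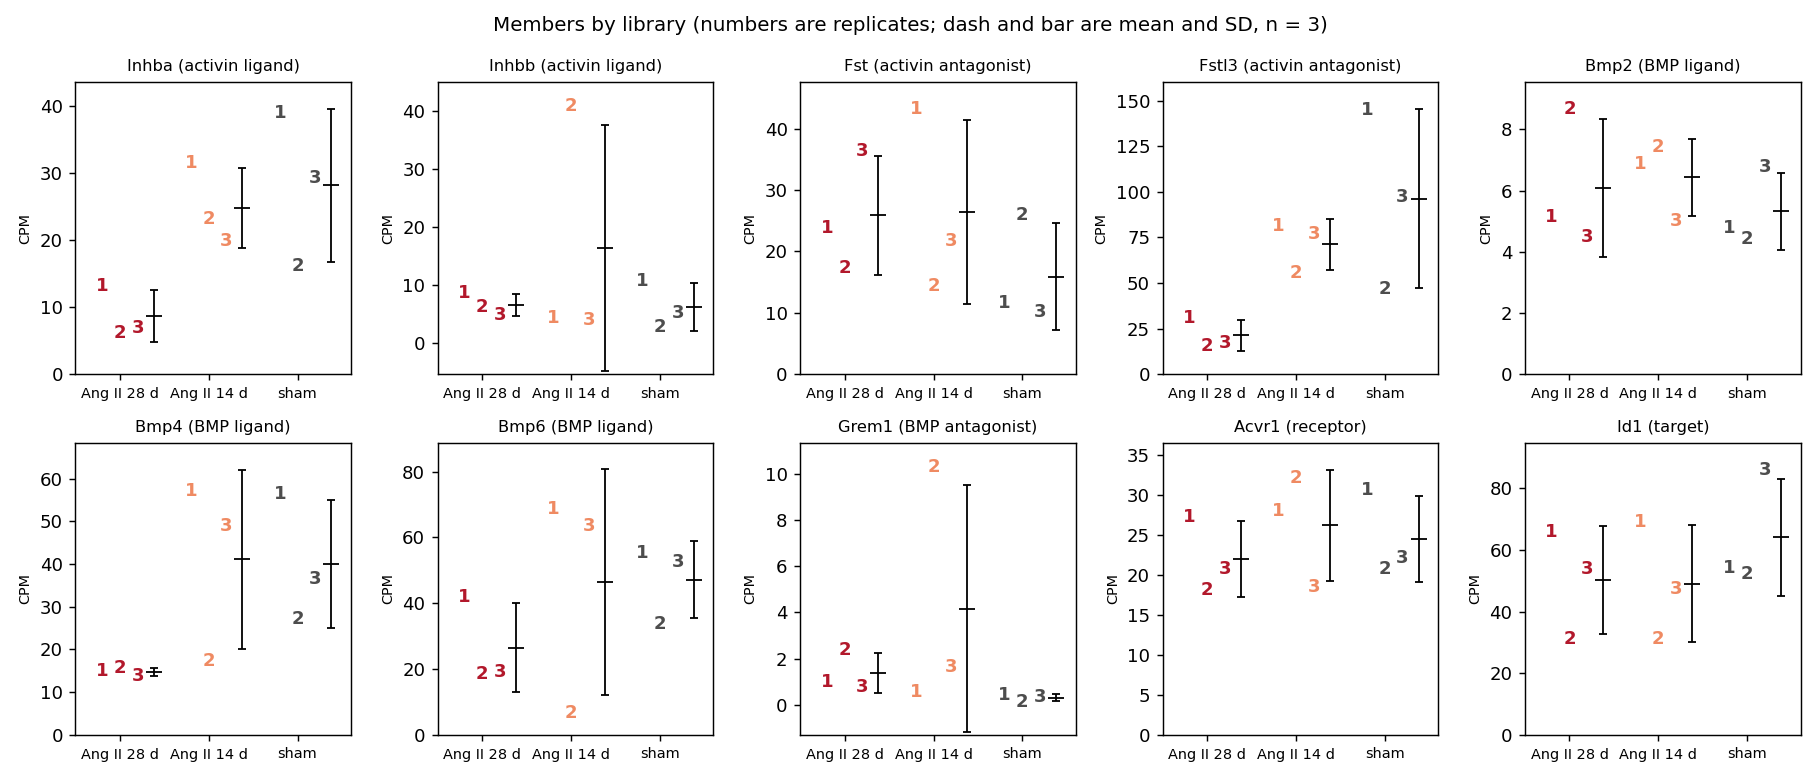
CPM (y axis) of the 10 members in Ang II 28-day, Ang II 14-day and sham aortas (x axis). Each number is 1 library, named by its replicate, and the dash with its bar is the mean ± SD (n = 3). Inhba, Fstl3 and Bmp4 sit lowest in the 28-day libraries, and Inhbb, Grem1 and Bmp6 are set apart in 14-day replicate 2.

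Promoter windows of 7 members were in the RefSeq table for GRCm38.p6. The 250 bases before the annotated start are shown for the 3 genes that were lower at 28 days than in sham, and for Grem1, which was higher than in sham. They are written 5′ to 3′ on the strand of the gene, from chr13:16011601-16011850 (plus strand) for Inhba, chr10:79777024-79777273 (plus strand) for Fstl3, chr14:46390670-46390919 (minus strand) for Bmp4 and chr2:113758649-113758898 (minus strand) for Grem1. Capitals mark matches on either strand to CAGAC, a motif bound by Smad3 and Smad4, and to the palindrome GGCGCC, a motif bound by BMP-responsive Smads.
Inhba: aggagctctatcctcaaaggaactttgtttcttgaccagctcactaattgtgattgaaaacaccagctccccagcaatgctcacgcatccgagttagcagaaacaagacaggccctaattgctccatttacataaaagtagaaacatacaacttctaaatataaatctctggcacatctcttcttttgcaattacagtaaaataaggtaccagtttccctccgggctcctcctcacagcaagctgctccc
Fstl3: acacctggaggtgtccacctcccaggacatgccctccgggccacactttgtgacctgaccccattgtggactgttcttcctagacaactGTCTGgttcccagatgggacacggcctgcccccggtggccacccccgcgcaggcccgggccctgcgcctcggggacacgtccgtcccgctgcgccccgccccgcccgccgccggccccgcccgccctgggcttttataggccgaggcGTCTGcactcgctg
Bmp4: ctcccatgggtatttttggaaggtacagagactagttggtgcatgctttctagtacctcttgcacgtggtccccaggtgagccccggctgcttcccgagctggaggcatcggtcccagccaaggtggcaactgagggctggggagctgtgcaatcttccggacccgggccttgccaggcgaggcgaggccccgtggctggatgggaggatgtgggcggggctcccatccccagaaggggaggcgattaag
Grem1: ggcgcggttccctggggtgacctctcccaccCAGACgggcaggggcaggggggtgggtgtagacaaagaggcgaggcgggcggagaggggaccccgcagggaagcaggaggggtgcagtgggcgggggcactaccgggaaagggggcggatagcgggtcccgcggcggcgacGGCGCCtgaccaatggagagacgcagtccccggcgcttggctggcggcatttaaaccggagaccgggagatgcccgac
Fstl3 held 2 CAGAC matches, beginning 161 and 14 bases before the start, and Grem1 held 1 CAGAC and 1 GGCGCC match, beginning 219 and 78 bases before it. The Inhba and Bmp4 windows held neither motif. Of all 32851 windows in the table, 42.2% held CAGAC and 9.59% held GGCGCC, and the motifs do not overlap each other in these windows. The cyclic AMP motif TGACGTCA and the AP-1 motif TGANTCA, searched on both strands, were in 1.55% and 6.75% of all windows and in none of the 7. The windows of Inhba, Fstl3, Bmp4 and Grem1 were 43.2%, 71.2%, 63.2% and 72.0% G or C. The Inhba window lies inside RefSeq's span of the gene, which begins further upstream, and the Grem1 start did not match a GENCODE transcript. Fst, Bmp2 and Id1 were not matched.

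Among the activin ligands, Inhba (Entrez 16323, GRCm38.p6 chromosome 13, 16004256 to 16031609) had 13.2, 6.16 and 6.83 CPM in 28-day replicates 1 to 3, 31.5, 23.2 and 19.9 CPM in 14-day replicates 1 to 3, and 39.0, 16.2 and 29.3 CPM in sham replicates 1 to 3. The 28-day libraries lay below all others, while the 14-day and sham libraries overlapped. The means were 8.75 ± 3.91 CPM at 28 days and 28.1 ± 11.5 CPM in sham (SD, n = 3 each), a log2 fold change of -1.69 ± 0.41 (SE, edgeR adjusted p = 0.205, DESeq2 adjusted p = 0.00563). At 14 days the log2 fold change to sham was -0.18 with a 95% interval of -1.10 to 0.74 (edgeR adjusted p = 0.809).

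Inhbb, the other activin beta chain (Entrez 16324, chromosome 1, 119415463 to 119422248), had 8.54, 6.09 and 4.78 CPM at 28 days, 4.27, 40.8 and 3.94 CPM at 14 days, and 10.7, 2.79 and 5.07 CPM in sham. One library, 14-day replicate 2, was far above the other 8, which overlapped between groups. Its log2 fold change at 14 days against sham was 1.41 ± 0.94 (edgeR adjusted p = 0.407), and -0.56 ± 0.57 without that library (edgeR adjusted p = 0.711). At 28 days the 95% interval against sham ran from -2.08 to 2.22 log2. On CPM per kilobase of exon, which allows levels of different genes to be compared, Inhba and Inhbb averaged 1.37 ± 0.612 and 1.52 ± 0.448 at 28 days, and 4.40 ± 1.79 and 1.45 ± 0.951 in sham. In sham the lowest library of Inhba, at 2.53, lay just above the highest of Inhbb, at 2.50, whereas the ranges of both genes overlapped at 28 days.

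Fstl3 and Fst, the activin antagonists, had different values. Fstl3, a secreted binder of activins (Entrez 83554, chromosome 10, 79777274 to 79782630), had 31.0, 15.6 and 17.0 CPM at 28 days, 81.4, 55.2 and 76.8 CPM at 14 days, and 145, 46.6 and 96.9 CPM in sham. All 28-day libraries were below all 14-day and sham libraries. Of the members it had the smallest p at 28 days, with a log2 fold change of -2.19 ± 0.45, or 4.55-fold lower than sham (edgeR adjusted p = 0.203, rank 87 of 14741 genes by p, DESeq2 adjusted p = 0.000215). Of its 2445 exon bases, 1157 overlap exons of Prss57 on the opposite strand, and the strand setting of the counting was not stated. Prss57 itself held 4.95 to 14.08 expected counts per library, and without strand the reads of both genes in that stretch cannot be told apart. At 14 days it was -0.44 ± 0.43 log2 against sham, with a 95% interval of -1.42 to 0.55 (edgeR adjusted p = 0.584).

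Fst, which encodes follistatin (Entrez 14313, chromosome 13, 114452262 to 114458989), had 23.8, 17.3 and 36.4 CPM at 28 days, 43.2, 14.4 and 21.6 CPM at 14 days, and 11.6, 25.9 and 10.1 CPM in sham. The 28-day and 14-day groups overlapped each other. Both overlapped sham only through sham replicate 2, the highest sham library, which also held the most neuron and Schwann cell transcripts, whose part in this value was not tested. Against sham, Fst was 0.70 ± 0.52 log2 at 28 days (edgeR adjusted p = 0.67) and 0.73 ± 0.52 log2 at 14 days (edgeR adjusted p = 0.434). With 1 library left out, these values ranged from 0.41 to 1.25 log2 at 28 days and from 0.18 to 1.28 log2 at 14 days. The upper end of both ranges was reached without sham replicate 2.

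The share of Fst in the sum of Fst and Fstl3, per kilobase of exon, was computed after the values had been seen. It was 29.0%, 37.3% and 53.3% at 28 days, 22.0%, 12.2% and 13.0% at 14 days, and 4.09%, 22.8% and 5.24% in sham. Every 28-day library was above every 14-day and sham library. The means were 39.9% ± 12.4 at 28 days and 10.7% ± 10.5 in sham (SD, n = 3 each), and 15.8% ± 5.44 at 14 days. An exact two-sided permutation test gave p = 0.1 at 28 days against sham, 0.6 at 14 days against sham and 0.1 at 28 against 14 days. The smallest p this test can give with 3 against 3 libraries is 0.1. As the share was chosen with the values known, it remains a description. Fst itself was -0.03 ± 0.52 log2 at 28 against 14 days, and Fstl3 alone separates the 28-day libraries from the others.

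**Figure D2:**
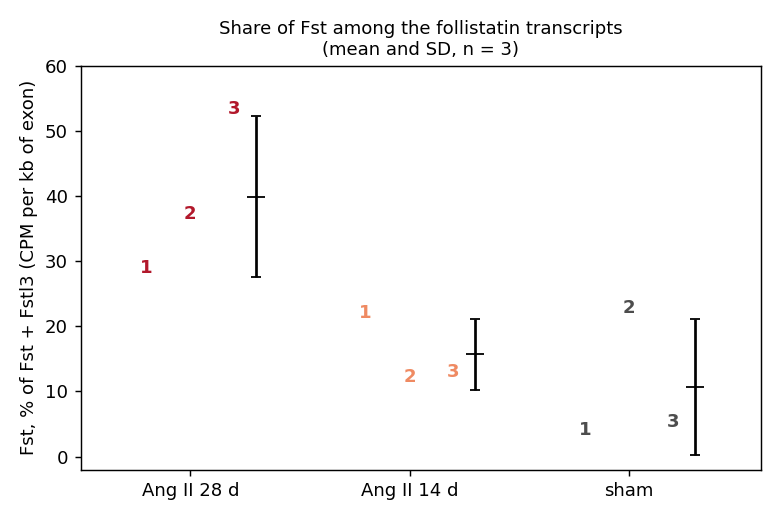
Share of Fst in Fst plus Fstl3 (y axis, % of CPM per kilobase of exon) in Ang II 28-day, Ang II 14-day and sham aortas (x axis). Numbers are replicates and the dash with its bar is the mean ± SD (n = 3), and the 28-day libraries lie between 29.0% and 53.3%, above the rest.

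Among the BMP ligands, Bmp4, a close relative of Bmp2 (Entrez 12159, chromosome 14, 46383525 to 46390669), had 14.9, 15.6 and 13.7 CPM at 28 days, 57.2, 17.4 and 48.8 CPM at 14 days, and 56.4, 27.2 and 36.4 CPM in sham. The 28-day libraries were close to each other and below all others, and 14-day replicate 2 was the next lowest. The means were 14.7 ± 0.987 CPM at 28 days and 40.0 ± 14.9 CPM in sham (SD, n = 3 each), or -1.44 ± 0.44 log2 (edgeR adjusted p = 0.233, DESeq2 adjusted p = 0.0337). At 14 days the value was 0.04 ± 0.43 log2 (edgeR adjusted p = 0.961). Antisense exons of other GENCODE genes overlap 89 exon bases of Bmp4 and 115 of Fst.

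Bmp6, known for its control of hepcidin and iron in the liver (Entrez 12161, chromosome 13, 38345716 to 38500314), had 42.0, 18.5 and 19.1 CPM at 28 days, 68.7, 6.77 and 63.5 CPM at 14 days, and 55.2, 33.8 and 52.5 CPM in sham. Exons of Txndc5 on the opposite strand, at 1297 to 3359 expected counts per library, overlap 224 exon bases of Bmp6, where reads likewise cannot be told apart. The lowest Bmp6 library was 14-day replicate 2 and the 2 highest were the other 14-day libraries, so that the group spanned the whole range. The log2 fold change to sham was -0.83 ± 0.74 at 28 days (edgeR adjusted p = 0.741) and -0.03 ± 0.73 at 14 days (edgeR adjusted p = 0.985). Without 14-day replicate 2 the value at 14 days was 0.51 ± 0.40 log2 (edgeR adjusted p = 0.608). Bmp2, known as an inducer of bone formation (Entrez 12156, chromosome 2, 133552159 to 133562896), had 5.14, 8.67 and 4.48 CPM at 28 days, 6.87, 7.42 and 5.02 CPM at 14 days, and 4.79, 4.43 and 6.76 CPM in sham. All 3 groups of Bmp2 overlapped, with a 95% interval of -0.61 to 1.00 log2 at 28 days and -0.53 to 1.08 log2 at 14 days against sham.

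Grem1, an antagonist that binds Bmp2 and Bmp4 (Entrez 23892, chromosome 2, 113748675 to 113758648), was the member with the lowest level. Its expected counts were 9, 33 and 10 in 28-day replicates 1 to 3, 8, 143 and 24 in 14-day replicates 1 to 3, and 4, 2 and 4 in sham replicates 1 to 3. In CPM these were 0.985, 2.36 and 0.759 at 28 days, 0.561, 10.3 and 1.63 at 14 days, and 0.426, 0.143 and 0.356 in sham. Every Ang II library was above every sham library, as was the case for 8.57% of all genes when both times were pooled. Grem1 passed the filter on low counts only through its Ang II libraries. A higher level under Ang II was thus in part a condition of its being tested. The fitted log2 fold change was 3.74 ± 1.14 at 14 days (edgeR adjusted p = 0.13, DESeq2 adjusted p = 0.0127) and 2.15 ± 1.11 at 28 days (edgeR adjusted p = 0.469, DESeq2 adjusted p = 0.34). Both values rest on very few sham counts, and their dependence on the prior count was not tested. Without 14-day replicate 2, the library rich in macrophage and fibroblast markers, the value at 14 days was 1.84 ± 0.81 log2 (edgeR adjusted p = 0.359), and without 28-day replicate 2 the value at 28 days was 1.49 ± 1.20 log2 (edgeR adjusted p = 0.878). The fibroblast markers summed to between 4256 and 8480 CPM at 28 days, between 4955 and 15750 CPM at 14 days, and between 2687 and 4826 CPM in sham, and their part in the Grem1 values was not tested.

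The receptor Acvr1 and the target gene Id1 overlapped between all groups. Acvr1, which encodes the type I receptor ALK2 (Entrez 11477, chromosome 2, 58446438 to 58566828), had 27.3, 18.1 and 20.7 CPM at 28 days, 28.0, 32.1 and 18.5 CPM at 14 days, and 30.6, 20.7 and 22.1 CPM in sham. Its 95% interval against sham was the narrowest of the members, from -0.77 to 0.47 log2 at 28 days and from -0.52 to 0.72 log2 at 14 days. Id1, a helix-loop-helix inhibitor that BMP signalling induces directly (Entrez 15901, chromosome 2, 152736251 to 152737410), had 65.7, 31.2 and 53.7 CPM at 28 days, 69.0, 31.0 and 47.3 CPM at 14 days, and 54.2, 52.3 and 86.1 CPM in sham. All groups of Id1 overlapped, with log2 fold changes to sham of -0.36 ± 0.38 at 28 days (edgeR adjusted p = 0.799) and -0.39 ± 0.38 at 14 days (edgeR adjusted p = 0.579).

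On CPM per kilobase of exon and over all 9 libraries, the order of the mean levels was Id1 at 47.0, Fstl3 at 25.7, Bmp4 at 14.2, Bmp6 at 10.3, Acvr1 at 5.01, Fst at 4.95, Inhba at 3.22, Inhbb at 2.27, Bmp2 at 1.68 and Grem1 at 0.469. Each pair of neighbours in this order overlapped in range. Fstl3 was between 6.36 and 59.4 across libraries, the widest span on this scale, and Grem1 was between 0.0345 and 2.48.

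The earlier time, 14 days of Ang II, was set against sham in the same way, and 0 members and 0% of all genes passed by edgeR. At an unadjusted p under 0.05 there was 1 member higher, Grem1, where 13.1% of all genes tested were higher, and 0 lower, where 10.4% were lower. Groups did not overlap, with 14 days higher, for 1 member and for 12.6% of all genes, and for 0 members and 13.5% of all genes with 14 days lower. The 1 member was Grem1, which passed the filter on low counts only through its Ang II libraries. DESeq2 called Grem1 higher and 0 members lower, where it called 8.6% of all genes higher and 4.77% lower. The median log2 fold change was 0.07 over the members and -0.07 over all genes tested.

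The 28-day and 14-day groups were compared directly. By edgeR 0 members and 0% of all genes passed. Inhba, Fstl3 and Bmp4 were lower at 28 days without overlap, 3 of 10 members where 5.71% of all genes tested were lower in this way, and 0 members were higher, where 4.35% of all genes were. Over the 9 libraries these 3 varied together, so they are not separate results. Pearson's r of log2 CPM was 0.98 for Inhba and Fstl3, 0.87 for Fstl3 and Bmp4, and 0.81 for Inhba and Bmp4. The member list was also chosen with earlier results of these data known. The same 3 had an unadjusted p under 0.05, where 2.27% of all genes were lower at that level and 6.13% differed in either direction. Their log2 fold changes were -1.51 ± 0.41 for Inhba, -1.75 ± 0.44 for Fstl3 and -1.48 ± 0.44 for Bmp4 (SE, edgeR adjusted p = 0.77 for each). DESeq2 called Fstl3 (adjusted p = 0.0141), and gave adjusted p = 0.0537 for Inhba and 0.107 for Bmp4, where it called 0.21% of all genes lower and 0.8% in either direction. The median over the members was -1.07 log2, against -0.05 over all genes tested, and -0.265 over the members without 14-day replicate 2. The comparisons with sham share the sham libraries, and the direct comparison shares its libraries with both.

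**Figure D3:**
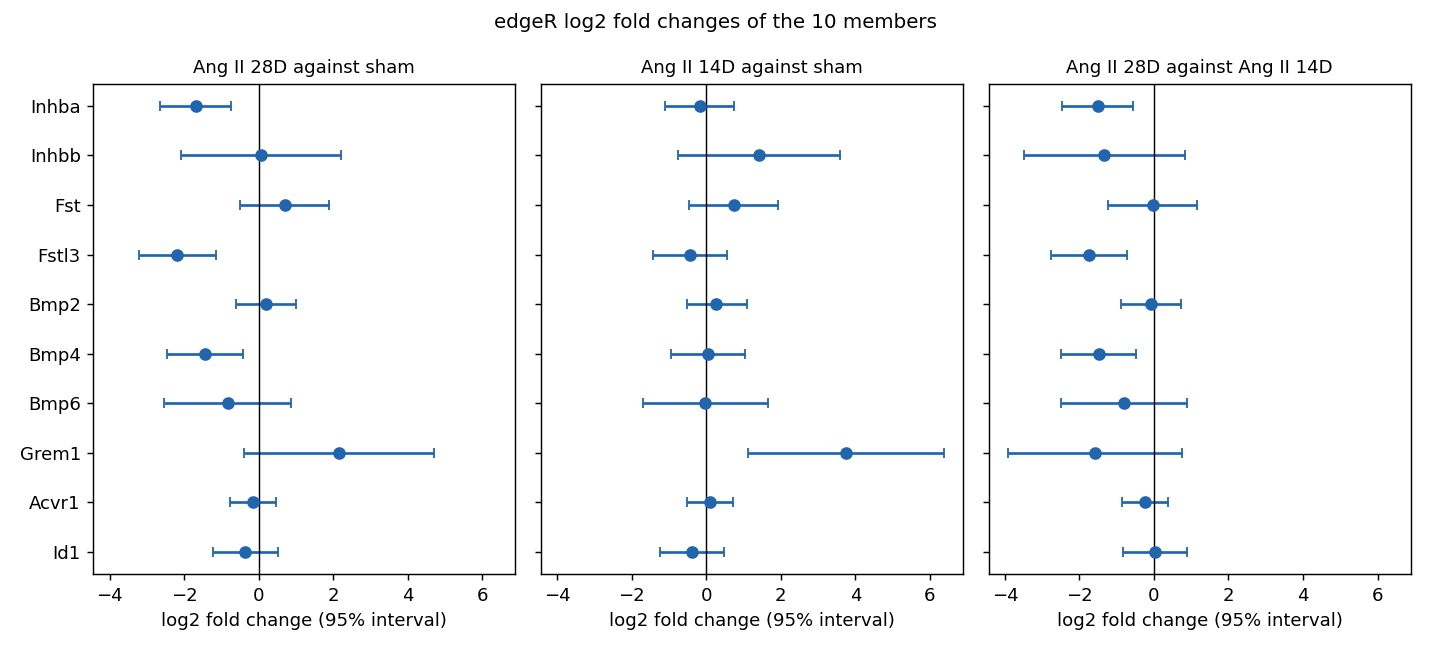
edgeR log2 fold changes (x axis) of the 10 members in 3 comparisons, with 95% intervals from the fit of all 9 libraries. The intervals of Inhba, Fstl3 and Bmp4 lie below 0 at 28 days against both sham and 14 days, and that of Grem1 lies above 0 at 14 days against sham.

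With both times pooled against sham, edgeR again passed 0 members and 0% of all genes, while DESeq2 called Fstl3 lower (adjusted p = 0.0119), where it called 4.32% of all genes lower, and Grem1 higher (adjusted p = 0.0335), where it called 7.87% higher. At an unadjusted p under 0.05 there were 2 members lower and 1 higher, where 21.5% of all genes tested had such a p in either direction. No member was lower in all 6 Ang II libraries than in every sham library, where 3.97% of all genes were. edgeR gave -1.31 ± 0.36 log2 for Fstl3 (adjusted p = 0.126), -0.93 ± 0.34 for Inhba (adjusted p = 0.176) and 2.95 ± 1.05 for Grem1 (adjusted p = 0.172).

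Inhba, Fstl3 and Bmp4 were low in the 28-day libraries, which also had low smooth muscle markers. These 8 markers summed to 6743, 2563 and 2222 CPM in 28-day replicates 1 to 3, 17851, 3901 and 13149 CPM in 14-day replicates 1 to 3, and 31911, 10410 and 22234 CPM in sham replicates 1 to 3, and all 8 were read in every library. In sham, all 3 genes ran in the order of these markers, highest in replicate 1 and lowest in replicate 2. At 14 days Fstl3 and Bmp4 also ran in marker order and Inhba did not, and at 28 days none of the 3 genes did. The 14-day replicate 2 had fewer smooth muscle transcripts than 28-day replicate 1. It had more Inhba (23.2 against 13.2 CPM) and Fstl3 (55.2 against 31.0 CPM), and slightly more Bmp4 (17.4 against 14.9 CPM). That is 1 pair of libraries, and 14-day replicate 2 was also the highest for macrophage and fibroblast markers. The part of smooth muscle content in these values was not tested, and in bulk tissue fewer cells of a type and less RNA per cell cannot be told apart. The 8 endothelial markers summed to between 1104 and 1897 CPM at 28 days, between 800 and 1866 CPM at 14 days, and between 870 and 1164 CPM in sham, and all were read in every library. Without the 3 libraries richest in nerve transcripts, a setting that keeps 28-day replicate 3 with 1274 CPM of those markers, the log2 fold changes at 28 days against sham were -1.80 ± 0.37 for Inhba, -2.36 ± 0.38 for Fstl3 and -1.72 ± 0.51 for Bmp4. This setting takes 1 library from each group. Of those left out, sham replicate 2 was the lowest in sham for all 3 genes. The 28-day replicate 2 was the lowest at 28 days for Inhba and Fstl3. These values therefore depend on which libraries were left out.

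**Figure D4:**
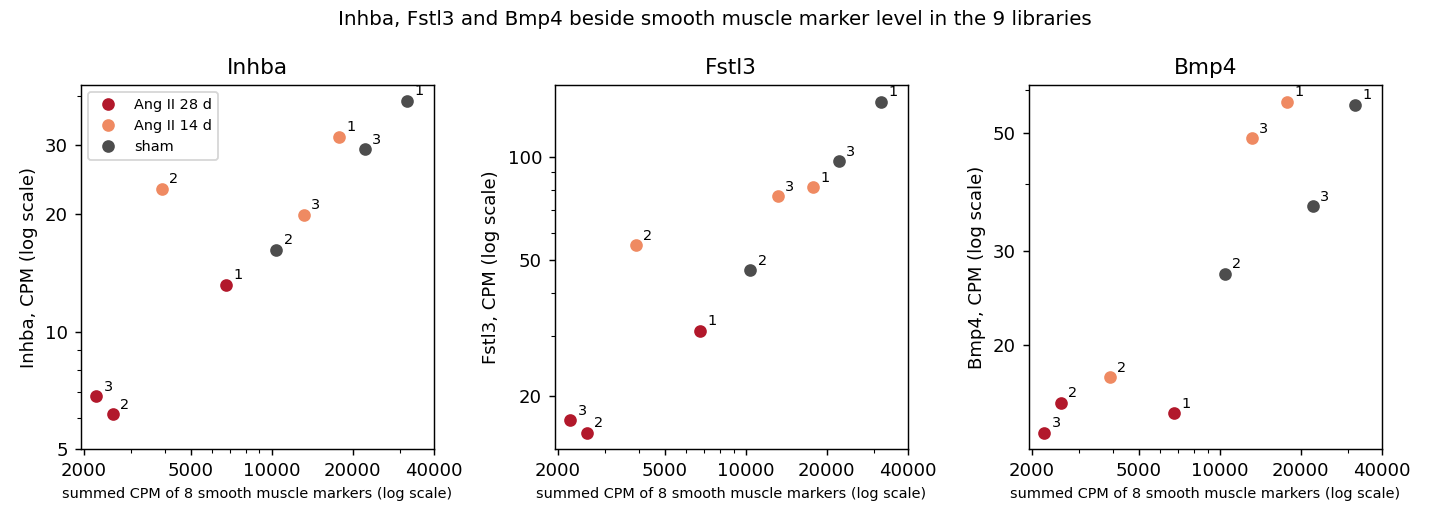
CPM of Inhba, Fstl3 and Bmp4 (y axes, log scale) against the summed CPM of 8 smooth muscle markers (x axis, log scale) in the 9 libraries. Points are libraries, coloured by group and numbered by replicate, and the 28-day points lie towards the lower left, while 14-day replicate 2 lies above the others of its marker level for Inhba and Fstl3. Within sham, each gene runs in the order of the markers.

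The genes whose log2 CPM over the 9 libraries was most like that of a member were searched among 12243 other genes with a mean of at least 5 CPM, with Pearson's r as a description. All these values rest on the same 9 libraries with their scaling and tissue mixture. Nearest to Inhba were Itgb1 (r = 0.99), Fzd7 and Kctd10 (r = 0.98 for both), and nearest to Fstl3 were Pi15 (r = 0.99), Actn1 and Col18a1 (r = 0.98 for both). Bmp4 was nearest to Krt18 and Wnt16 (r = 0.97 for both) and Fjx1 (r = 0.96), and Id1 to Tmem185a (r = 0.98), Igfbp5 (r = 0.97) and Omd (r = 0.95). Inhbb was nearest to Slc16a3 (r = 0.99), Card19 (r = 0.97) and Appl2 (r = 0.95), and Fst to Sec24b, Xaf1 and Gbp7 (r = 0.92 for each). For Acvr1 they were Tmem159, Cyp20a1 (r = 0.94 for both) and 1810037I17Rik (r = 0.93). Among 12244 genes, Grem1 was nearest to Wdr81, Zfp710 and Vsir (r = 0.97 for each). Bmp2 had the weakest neighbours, Hivep3, Ppp1r15a (r = 0.82 for both) and Usp12 (r = 0.79).

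Beside the members, 62 other genes of the activin and BMP pathway were listed, of which 52 passed the filter on low counts. By edgeR 0 of the 52 passed in any comparison. At an unadjusted p under 0.05, 4 were higher and 11 lower at 28 days against sham, beside 7.96% and 5.89% of all genes, and 4 were higher and 5 lower at 14 days, beside 13.1% and 10.4% of all genes. At 28 against 14 days 3 were higher and 6 lower, beside 3.86% and 2.27% of all genes, and with both times pooled 3 were higher and 8 lower, beside 11.4% and 10.1%. DESeq2 called 2 higher and 5 lower at 28 days, beside 3.89% and 2.69% of all genes, and 1 higher and 2 lower at 14 days, beside 8.6% and 4.77%. With both times pooled it called 1 higher and 5 lower, beside 7.87% and 4.32% of all genes, and at 28 against 14 days 0, beside 0.8%. Their median log2 fold change was -0.15 at 28 days and -0.08 at 14 days, against -0.08 and -0.07 over all genes tested.

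Of the 14 other receptors and co-receptors, all tested, DESeq2 called 1 higher and 3 lower at 28 days, beside 3.89% and 2.69% of all genes. Bmpr1b, a BMP type I receptor, had 1.97, 2.29 and 2.35 CPM at 28 days, 4.20, 1.58 and 2.58 CPM at 14 days, and 25.6, 8.80 and 9.52 CPM in sham. Every Ang II library was below every sham library. Its log2 fold change was -2.72 ± 0.54 at 28 days (edgeR adjusted p = 0.203, DESeq2 adjusted p = 0.000235) and -2.39 ± 0.53 at 14 days (edgeR adjusted p = 0.117, DESeq2 adjusted p = 0.0009). Bmpr1a, the related receptor, averaged 59.0 ± 11.1 CPM at 28 days and 120 ± 30.5 CPM in sham (log2 -1.02 ± 0.29, edgeR adjusted p = 0.217, DESeq2 adjusted p = 0.018). At 14 days Bmpr1a averaged 69.4 ± 21.4 CPM (log2 -0.79 ± 0.28 against sham, edgeR adjusted p = 0.157). Neo1, which encodes neogenin, a partner of the repulsive guidance co-receptors, averaged 41.3 ± 8.68 CPM at 28 days, 54.9 ± 9.10 CPM at 14 days and 82.4 ± 15.6 CPM in sham, with DESeq2 adjusted p = 0.00222 at 28 days. The sham libraries of both Bmpr1a and Neo1 ran in the order of the smooth muscle markers. At 14 days only Bmpr1a did, and at 28 days neither did. The part of smooth muscle content in these values was not tested. The receptor gene called higher was Hjv, the hemojuvelin co-receptor of skeletal muscle and liver, named after its values were seen, at 75.4, 26.8 and 0.38 CPM at 28 days, 3.57, 0.432 and 2.92 CPM at 14 days, and 5.11, 0.787 and 1.07 CPM in sham. The 28-day libraries of Hjv ran in the order of their skeletal muscle markers, at 13330, 4438 and 91.8 CPM, whose part in this value was not tested.

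Of the 14 other extracellular antagonists and modulators, 13 were tested. Bmper, which encodes a secreted BMP-binding endothelial regulator, had 26.4, 15.0 and 32.3 CPM at 28 days, 23.4, 33.6 and 12.6 CPM at 14 days, and 6.29, 6.51 and 6.58 CPM in sham. All Ang II libraries were above the sham libraries, which differed little from each other. The fibroblast markers, summed above for each group, were highest in the same library as Bmper, 14-day replicate 2, and their part in these values was not tested. Its log2 fold change was 1.93 ± 0.40 at 28 days (edgeR adjusted p = 0.203, DESeq2 adjusted p = 0.00139) and 1.84 ± 0.40 at 14 days (edgeR adjusted p = 0.117, DESeq2 adjusted p = 0.001). Twsg1, a secreted modulator of BMP and chordin binding, averaged 114 ± 22.1 CPM at 28 days, 162 ± 41.5 CPM at 14 days and 236 ± 63.3 CPM in sham (log2 -1.06 ± 0.29 at 28 days against sham, DESeq2 adjusted p = 0.0115). Its lowest sham library was replicate 2, which also held the fewest smooth muscle transcripts in sham, whose part was not tested. Kcp, a chordin-like protein, averaged 3.04 ± 0.245 CPM at 14 days and 8.09 ± 3.28 CPM in sham (log2 -1.41 ± 0.45, DESeq2 adjusted p = 0.0383).

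Of the 18 other ligands, 9 were tested, and DESeq2 called 0 at either time against sham, beside 6.58% of all genes at 28 days and 13.4% at 14 days. Bmp3, a ligand that opposes other BMPs, averaged 7.58 ± 4.97 CPM at 28 days, 8.10 ± 5.84 CPM at 14 days and 26.8 ± 11.6 CPM in sham, and DESeq2 called it with both times pooled (adjusted p = 0.0378, edgeR adjusted p = 0.147). Inha, the inhibin alpha chain, averaged 5.76 ± 0.646 CPM at 28 days and 12.0 ± 4.69 CPM in sham (log2 -1.06 ± 0.37, edgeR adjusted p = 0.261). Gdf10, also called BMP3B, averaged 195 ± 99.6 CPM at 14 days and 91.6 ± 34.3 CPM in sham (log2 1.09 ± 0.45, edgeR adjusted p = 0.199).

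All 10 Smads and Smurfs were tested, and DESeq2 called 0 of them, beside the same shares of all genes. Smad1, a transducer of BMP signals, was above sham in all 6 Ang II libraries, at 22.5, 28.3 and 24.6 CPM at 28 days, 24.2, 26.5 and 18.8 CPM at 14 days, and 15.1, 18.0 and 18.4 CPM in sham, or 0.55 ± 0.19 log2 at 28 days (edgeR adjusted p = 0.254). Smad3, a transducer of activin signals, was 0.54 ± 0.28 log2 at 14 days against sham (edgeR adjusted p = 0.277). Smad7, an inhibitory Smad, averaged 12.2 ± 2.84 CPM at 28 days and 24.2 ± 3.38 CPM at 14 days (log2 -0.98 ± 0.31, edgeR adjusted p = 0.77), and 20.8 ± 7.90 CPM in sham.

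All 6 other BMP target genes were tested, with a median of -0.92 log2 at 28 days against sham, beside -0.08 over all genes tested. DESeq2 called 1 of them lower at 28 days, beside 2.69% of all genes. It was Hey2, a transcriptional repressor that Notch signals also induce, with 11.4, 11.5 and 10.8 CPM at 28 days and 53.3, 36.5 and 37.3 CPM in sham (log2 -1.92 ± 0.59, edgeR adjusted p = 0.233, DESeq2 adjusted p = 0.024). At 14 days Hey2 had 46.9, 6.63 and 26.3 CPM, so 14-day replicate 2 lay below every 28-day library. Atoh8, a helix-loop-helix factor, averaged 15.6 ± 4.06 CPM at 28 days and 44.0 ± 31.9 CPM in sham (log2 -1.50 ± 0.57, edgeR adjusted p = 0.297). Id3, a relative of Id1, averaged 74.9 ± 15.6 CPM at 28 days, 128 ± 18.3 CPM at 14 days and 102 ± 26.1 CPM in sham. Hey1 was 0.17 ± 0.40 log2 at 28 days and -0.57 ± 0.40 log2 at 14 days against sham (edgeR adjusted p = 0.936 and 0.424).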

How the data were processed

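Each library has 1 deposited table of expected counts per gene, which per the file headers and the values are not normalised: 9.77% to 11.04% of a library's genes carry a count further than 0.001 from a whole number. The submitters' processing notes name HISAT2 2.2.1, Bowtie2 2.4.5, RSEM 1.3.1 and GRCm38.p6, without roles, and no strand setting was stated. Per the labels, RNA came from TRIzol extraction and libraries from an MGIEasy mRNA kit.

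Fractional counts were rounded, and Entrez IDs gave RefSeq symbols for 18775 of 18830 genes. The main test was edgeR 4.0.16 (filterByExpr, TMM, robust glmQLFit, common dispersion 0.263) on the 3 groups of 9 libraries together. P-values of each of the 4 comparisons were adjusted over 14741 genes (Benjamini-Hochberg, threshold 0.05), and each SE follows from the fold change and its F statistic. Exon lengths and overlaps come from GENCODE M21. The fits were also run on simulated counts, and the outcome is not given here. Alternatives were DESeq2 1.42.0, limma 3.58.1 on log2 CPM (prior count 2) and the settings named in the closing section; a planned limma fit on FPKM was not run, as FPKM values were not used here. Named pathway genes were any past the threshold and, the 2 of each list that ranked first by p against sham at each time; Hjv was added after its values were seen. The members, lists and alternatives were chosen with earlier results of these data known. The genes whose pattern was nearest to that of Bmp6 are not reported here.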

Additional observations from a re-analysis of the deposited data

How the results depend on the processing

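By edgeR the count of members past the threshold was 0 in all 4 comparisons under every edgeR setting and under limma on log2 CPM, a setting added after seeing the data. DESeq2 gave 3 members and 970 genes at 28 days against sham, 1 and 1970 at 14 days, 1 and 118 at 28 against 14 days, and 2 and 1797 with both times pooled. Genes called numbered 1 at 14 days and 1 with both times pooled under the replicate block, and 1 at 14 days when the compared groups were fitted alone. When 1 library was left out, the genes called ranged from 0 to 7 at 28 days (7 without 28-day replicate 3, 5 without sham replicate 2) and from 0 to 5 with both times pooled (5 without sham replicate 2). Whether the replicate numbers pair the libraries is not stated. The correlation of deviations from the group means ran from -0.55 to 0.65 between same-numbered libraries and from -0.73 to 0.72 between the others. These ranges overlap, so they cannot decide it. Inhba, Fstl3 and Bmp4 kept their sign at 28 days against sham and against 14 days in all settings, with -2.11 to -1.38, -2.56 to -1.77 and -1.66 to -1.11 log2 against sham when 1 library was left out. Grem1 at 14 days ranged from 1.84 to 4.26 log2, and the 5 CPM filter left it out.

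Of 664 member values under an alternative, 42 changed sign, 0 of them with an unadjusted p under 0.05; the cause was not tested. With the replicate block these were Inhbb at 28 days (-0.02), Bmp4 at 14 days (-0.01) and Fst at 28 against 14 days (0.02). Without the 3 nerve-rich libraries they were Inhbb (-0.26) and Bmp2 (-0.31) at 28 days, Bmp4 (-0.45) and Acvr1 (-0.01) at 14 days, Fst at 28 against 14 days (0.68) and Bmp2 with both times pooled (-0.09). Under limma they were Bmp4 at 14 days (-0.06) and Fst at 28 against 14 days (0.05). With 1 library left out, values against sham at 28 days ranged from -0.33 to 0.04 for Acvr1, -0.28 to 0.71 for Inhbb and -0.15 to 0.45 for Bmp2. At 14 days they ranged from -0.46 to 0.13 for Inhba, -0.43 to 0.51 for Bmp6, -0.27 to 0.43 for Bmp4, -0.05 to 0.30 for Acvr1 and -0.56 to 2.05 for Inhbb. At 28 against 14 days they ranged from -0.36 to 0.52 for Fst, -1.80 to 0.66 for Inhbb, -0.42 to 0.10 for Bmp2, -2.25 to 0.33 for Grem1 and -0.21 to 0.36 for Id1, and with both times pooled from -0.13 to 0.17 for Acvr1 and -0.23 to 1.38 for Inhbb. The median over the 10 members with 1 library left out ranged from -0.465 to -0.105 at 28 days, -0.11 to 0.245 at 14 days, -1.355 to -0.265 at 28 against 14 days and -0.315 to -0.045 with both times pooled. Depth limits Grem1 most, at 2 to 4 counts in sham libraries.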

Other observations

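Marker lists of other tissues were summed in each library beside the members. The 7 cartilage and bone markers summed to between 10.1 and 20.4 CPM at 28 days, between 11.7 and 82.1 CPM at 14 days, and between 8.23 and 23.0 CPM in sham, with the highest value in 14-day replicate 2, which also held the most Grem1 and Inhbb. The 7 markers of white and brown fat summed to between 2935 and 6899 CPM at 28 days, between 1366 and 4503 CPM at 14 days, and between 5623 and 10108 CPM in sham. The 6 T and B lymphocyte markers summed to between 31.0 and 745 CPM at 28 days, between 32.2 and 1163 CPM at 14 days, and between 5.94 and 7.67 CPM in sham. The 8 macrophage markers summed to between 2071 and 3548 CPM at 28 days, between 2227 and 12885 CPM at 14 days, and between 324 and 1503 CPM in sham. The 4 mesothelial markers stayed at or below 3.87 CPM and the 5 adrenal markers at or below 7.74 CPM in all libraries.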
